A study of Arabidopsis thaliana with 14 samples.

Results

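The change between 2 h and 6 h of auxin treatment was followed in roots of slr-1, an Arabidopsis thaliana mutant that forms no lateral roots, by setting its 2 arrays at 6 h against its 2 arrays at 2 h, as the sample titles name them. These 4 arrays are part of a set of 14 Affymetrix ATH1 arrays in 7 groups of 2 biological replicates. The other groups were slr-1 at 0 h, the wild type Col-0 at 0 h, 2 h and 6 h, and Col-0 after a 6 h mock treatment without auxin. All seedlings, the controls included, had germinated on NPA at 10 µM, which blocks polar movement of auxin, and at an age of 3 days those treated were moved to 10 µM NAA, a synthetic auxin. Each sample was a pool of root segments, cut between the meristem and the junction with the hypocotyl, from seedlings collected by time point. The slr-1 line had no mock arrays, so in the mutant the action of NAA and the effects of transfer and elapsed time cannot be told apart.

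SLR is the gene IAA14, one of the Aux/IAA repressors that hold auxin response factors inactive until auxin triggers their breakdown. The slr-1 allele encodes a stabilised repressor, and mutant plants do not carry out the pericycle divisions from which lateral roots start. In the wild type, NPA followed by NAA brings the pericycle along the root into division nearly in step, so the hours after transfer hold first the direct auxin response and then entry into the cell cycle. The probe set of IAA14 was not analysed here.

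An array value is the signal of a probe set, a group of oligonucleotides for 1 transcript, on a linear scale of brightness. Of 22746 probe sets other than controls, 14882 had both arrays of at least 1 group above a signal of 218.1 and were tested, and 13543 of them passed in slr-1 at 2 h or 6 h. The lowest array of the best group read 218.2 just inside this limit and 218.1 just outside it. Changes are given as log2 differences of the signal plus 18.9, which compresses the change of dim probe sets. A probe set was called at a Benjamini-Hochberg adjusted p under 0.05 in a limma fit to all 14 arrays, and changes carry their standard error (SE). With 2 pools per group, tests rest mainly on the spread shared by all groups.

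The 14 arrays had like medians, from 357.1 to 397.2, but 2 of the slr-1 arrays stood apart. Replicate 2 at 6 h reached a maximum signal of 29349.7, against 58837.1 to 124830.4 on the others, and in the top 1% of probe sets by mean signal it lay a median of 0.72 (log2) below replicate 1. In that brightest bin 0 probe sets were called higher and 7 lower at 6 h against 2 h, and the median change was -0.37, so counts are given also without that array. Without it, the genotype difference of WES1, a gene described further on, was -0.96 (adjusted p = 0.187). Replicate 2 at 0 h, which does not enter the comparison of 6 h with 2 h except through the spread, had a GAPDH 3' to 5' ratio of 1.16, against 0.546 to 0.742 elsewhere. Of the tissue markers, the shoot light-harvesting gene LHCB4.2 read 90.8 and 136 at 2 h and 81 and 114 at 6 h in slr-1, and the root hair expansin EXPA7 read 90.1 and 26.2 at 2 h and 96.5 and 50.4 at 6 h. The meristem gene BBM was under the limit on every array, and other markers of stele, endodermis and meristem had no named probe set, so the label of the tissue could be checked only in this small part.

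Few probe sets were called between 2 h and 6 h in the mutant. In slr-1 69 probe sets were higher at 6 h than at 2 h (0.464% of those tested) and 112 were lower (0.753%), of which 35 and 55 changed at least 2-fold. Over the same interval Col-0 had 2304 probe sets higher (15.5%) and 2624 lower (17.6%). The difference of the 2 changes, slr-1 minus Col-0, was called for 782 probe sets in the positive direction (5.25%) and for 683 in the negative (4.59%), together 9.84% of those tested. In all 181 probe sets called in slr-1 (1.22%) the 2 h and 6 h arrays did not overlap, as was also so upward for 29% and downward for 19.1% of all tested, and 83 of the 181 carry 1 gene in the annotation. Leaving out any single array of slr-1 at 2 h or 6 h lowered the count to between 31 and 77 probe sets, 23 to 45 of the 181 were called again, and 0 of the 181 changed direction. Without replicate 2 at 6 h, 8 were called higher and 45 lower.

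The steepest of the 112 falls was that of a gene of the response to water loss that had risen in the first 2 h. LEA4-5, a late embryogenesis abundant protein that accumulates when cells dry out, read 146 and 69.8 in slr-1 at 0 h, 3819 and 1834 at 2 h and 304 and 232 at 6 h. Both 6 h arrays lay far below both 2 h arrays and above both 0 h arrays, and the change was -3.23 ± 0.46 (adjusted p = 0.00542). COR47, a dehydrin first found as a cold-regulated gene, read 20396 and 22365 at 0 h, 59725 and 56170.3 at 2 h and 28693 and 19597 at 6 h. Its 6 h arrays overlapped those at 0 h, and its change from 2 h was -1.29 ± 0.24 (adjusted p = 0.0226). Under quantile normalization the change was -0.69 (adjusted p = 0.0357), and of 10 other settings with all arrays kept, the call of COR47 held in 6 (adjusted p up to 0.143). SRC2, a relative of a cold-regulated soybean gene that was picked after its values were seen, went from 11469 and 10601 to 5533 and 5445, a change of -1.0 ± 0.21 (adjusted p = 0.0306). Of 7 tested genes in the list of abscisic acid and dehydration genes, 2 fell, against 0.753% of all tested, and 0 rose. Their median change was -0.47 against 0.06 over all probe sets. Under quantile normalization the list's median was -0.22. In Col-0 6 of the 7 fell, against 17.6% of all tested, with a median of -0.65. The change differed between the genotypes in 0 of the 7, against 9.84% of all tested.

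Genes of other roles fell as well. EXLA1, an expansin-like protein of the cell wall, read 599 and 851 at 0 h, 2339 and 3472 at 2 h and 781 and 1346 at 6 h, a change of -1.46 ± 0.28 (adjusted p = 0.023) from a signal at 2 h above either other time. PRN, a pirin that binds the alpha subunit of the heterotrimeric G protein, went from 1918 and 1477 to 4595 and 4009 and back to 1767 and 1865. Its 6 h arrays lay within the range of the 0 h arrays, and the change of -1.23 ± 0.15 (adjusted p = 0.0024) kept its call in every alternative fit. WRKY6, a transcription factor of senescence and phosphate supply, read 6010.1 and 5089 at 2 h and 2583 and 3317 at 6 h (-0.91 ± 0.15, adjusted p = 0.0116), with both 6 h arrays lower. SWEET2, a sugar transporter of the vacuole membrane, changed by -0.97 ± 0.21 (adjusted p = 0.0398), and UGT73B5, a glucosyltransferase of the stress response, changed by -0.80 ± 0.18 (adjusted p = 0.0485).

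Several of the steepest falls belong to loci that the annotation gives no symbol. AT4G18280 read 124 and 108 at 0 h, 2271 and 1758 at 2 h and 277 and 282 at 6 h, and AT2G23120 read 6691 and 7483 at 0 h, 27995 and 28987 at 2 h and 8388 and 7199 at 6 h. Both peaked at 2 h, and their changes of -2.76 ± 0.29 (adjusted p = 0.000817) and -1.87 ± 0.20 (adjusted p = 0.000974) kept their calls in every alternative fit in which they were tested. AT1G05340 also kept its call throughout, with 5165 and 4139 at 2 h and 1243 and 1329 at 6 h (-1.83 ± 0.19, adjusted p = 0.000817). AT5G44020 took another course, with no rise at 2 h: it read 3038 and 3453 at 0 h, 2795 and 4273 at 2 h and 536 and 743 at 6 h. Its change after 2 h was -2.42 ± 0.31 (adjusted p = 0.00302), and both 6 h arrays were below all 4 earlier ones. BHLH101, a transcription factor of iron deficiency, declined over both intervals, from 2319.5 and 2875 to 1064 and 1656 to 390.4 and 662 (-1.35 ± 0.27 from 2 h to 6 h, adjusted p = 0.0283).

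**Figure D1:**
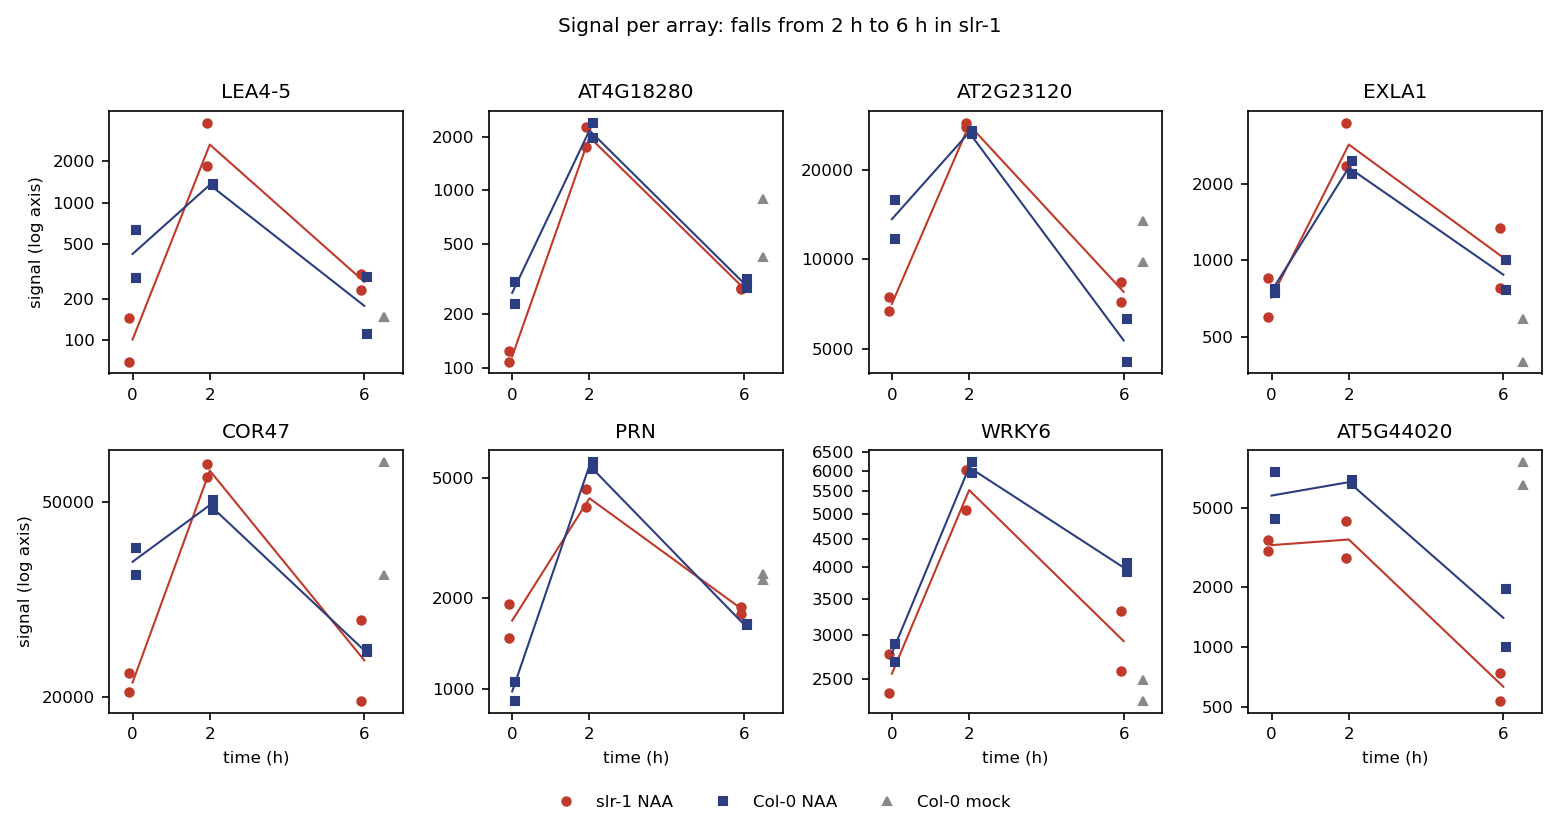
Signal on each array (log axis) against time for 8 genes that fell between 2 h and 6 h in slr-1; circles are slr-1 and squares Col-0 in NAA, lines join geometric means of the 2 arrays, and triangles, drawn just right of 6 h, are Col-0 after 6 h of mock treatment. In 7 of the panels slr-1 peaks at 2 h, and AT5G44020 shows no peak and lies below its 0 h arrays at 6 h.

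RALF-like peptides are small secreted signals read by receptor kinases of the cell wall. Among 7 tested in their list there were 3 falls, against 0.753% of all tested, and 0 rises, with a median change of -0.04. This list was added after the calls had been seen, so its count is a description. RALFL22 went from 1667 and 1805 at 2 h to 883 and 1026 at 6 h, near the 833 and 902 of 0 h, and changed by -0.85 ± 0.16 (adjusted p = 0.0224). Both 6 h arrays were below both 2 h arrays. In Col-0 it stood at 2012 and 1842 at 2 h and 2707 and 1979 at 6 h, and the change differed between the genotypes by -1.12 ± 0.23 (adjusted p = 0.0101). RALFL32 differed the other way: it read 8805 and 8619.8 at 2 h and 5769 and 5502 at 6 h in slr-1 (-0.63 ± 0.14, adjusted p = 0.0426). Its Col-0 signals were 10514 and 8254 at 2 h and 2944 and 2739.7 at 6 h, a difference of 1.08 ± 0.19 (adjusted p = 0.00517). RALFL33 changed in slr-1 by -0.76 ± 0.16 (adjusted p = 0.0331), and its difference between the genotypes was -0.08 ± 0.23 (adjusted p = 0.868).

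Most calls among the named falls depend on having all 4 arrays. With 1 array left out, LEA4-5 lost its call without replicate 1 at 2 h or replicate 2 at 6 h (adjusted p up to 0.0677, changes -3.75 to -2.7). COR47, the brightest of them, kept its call without replicate 1 at 6 h and lost it without replicate 2 at 6 h (-1.01, adjusted p = 0.106) or without either 2 h array (adjusted p up to 0.143). EXLA1, BHLH101 and WRKY6 lost theirs without replicate 1 at 2 h or replicate 1 at 6 h, and EXLA1 and BHLH101 also without replicate 2 at 2 h (adjusted p up to 0.16, 0.198 and 0.102). SRC2, SWEET2, UGT73B5 and the 3 RALF-like genes lost theirs without any 1 of the 4 arrays (adjusted p up to 0.18, 0.261, 0.248, 0.131, 0.199 and 0.228). The direction of every one of these changes was kept. The genotype difference of RALFL22 was lost without replicate 1 of Col-0 at 6 h (-0.89, adjusted p = 0.0525), and that of RALFL32 kept its call with any 1 of the 8 arrays left out.

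Which early rises decayed was read from the calls at 2 h against 0 h, a comparison that shares the 2 h arrays, so a 2 h array that reads high by chance enters both. Of 1021 probe sets higher at 2 h than at 0 h in slr-1 (6.86%), 76 fell by 6 h, 2 rose further and 943 were not called. The 76 were 7.44% of the early rises, against 0.753% of all tested that fell. The 2 were 0.196%, against 0.464% of all tested that rose. The 76 had risen by a median of 1.24 and fell by a median of 0.99, which left them a median of 0.26 above 0 h. At 6 h 25 of them were still called above 0 h (7.96% of all tested were), 3 were called below it (6.26% of all tested), and 48 were called neither way. The 943 had risen by a median of 1.02 and stood a median of 0.81 above 0 h at 6 h, where 605 were still called higher. From 2 h to 6 h 720 of the 943 changed below zero (76.4%, against 43% of all tested), with a median of -0.25. Among 811 early falls (5.45%), 16 rose by 6 h (1.97%, against 0.464% of all tested), 3 fell further (0.37%, against 0.753%) and 792 were not called. A further 33 probe sets fell and 51 rose without an early call. At 6 h all of these 33 lay below both 0 h arrays and all of these 51 above both, which the choice itself favours. Of all 14882 tested, 3811 lay below both and 4181 above both.

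On the arrays of the wild type, which enter neither slr-1 comparison except through the spread, most of the probe sets that fell in slr-1 fell too. Of the 112, 96 were also lower in Col-0 at 6 h than at 2 h (85.7%, against 17.6% of all tested), with a median of -1.11 beside -0.99 in slr-1, 14 were not called and 2 were higher. In Col-0 54 of the 112 had risen by 2 h (48.2%, against 9.75% of all tested). The change differed between the genotypes in 12 of the 112, or 10.7%, near the 9.84% of all tested. After mock treatment 19 were lower than at 0 h in Col-0 (17%, against 2.1%) and 9 were higher (8.04%, against 2.98%). Without replicate 1 of slr-1 at 6 h, 66 fell and 43 of these fell in Col-0 (65.2%), and without replicate 2 at 6 h, 45 fell and 42 of these fell in Col-0 (93.3%).

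The rises were fewer, and their courses were of 3 kinds. Of the 69, 45 were also higher in Col-0 at 6 h than at 2 h (65.2%, against 15.5% of all tested), 19 were not called there, and 5 were lower. For the 45 the median change was 0.97 in slr-1 and 1.51 in Col-0. Their difference was called negative for 16, against 4.59% of all tested. For the 19 the medians were 1.16 and 0.03, and the difference was called positive for 12, against 5.25% of all tested. Sorting the rises by their Col-0 calls itself favours such differences. In Col-0 9 of the 19 were higher in mock than at 0 h (47.4%, against 2.98% of all tested). Without replicate 2 of slr-1 at 6 h, 8 probe sets rose, 4 of them also in Col-0 (50%), and without replicate 1 at 2 h, 13 rose, 5 of them also in Col-0 (38.5%).

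**Figure D2:**
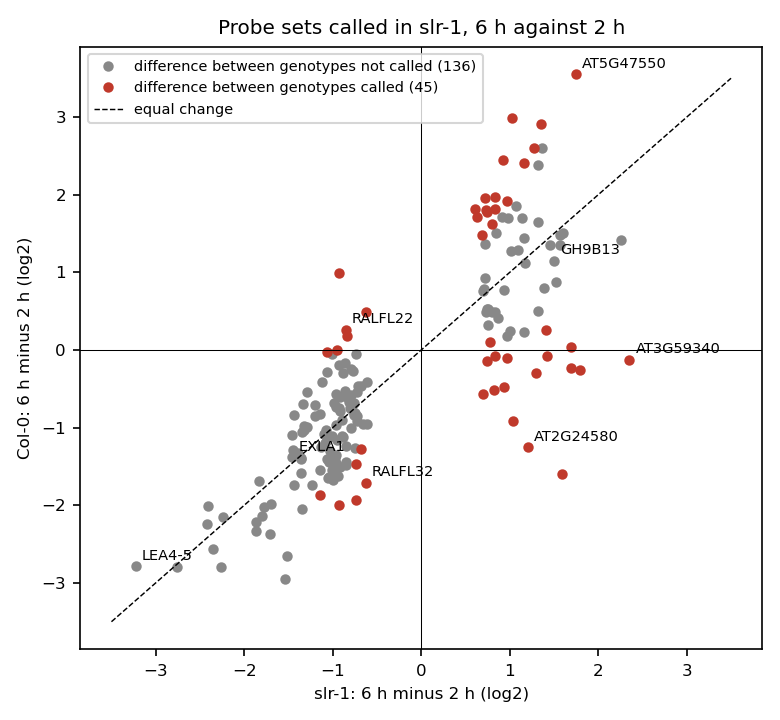
Change from 2 h to 6 h in slr-1 (horizontal, log2) against that in Col-0 (vertical, log2) for the 181 probe sets called in slr-1; each point is 1 probe set, and the dashed line marks equal change. Most falls lie near the line, while the rises spread from far above it, as AT5G47550, to below zero in Col-0, as AT2G24580; the 45 in red passed the test of the difference.

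Of the rises shared with Col-0, GH9B13, an endoglucanase-type glycosyl hydrolase of the cell wall, came late in the mutant. It read 244 and 474 in slr-1 at 0 h, 369 and 304 at 2 h and 907 and 1063 at 6 h, while Col-0 went from 273 and 180.3 to 2221 and 2562 to 5767 and 4912. Its signal at 6 h in slr-1 was thus below that of Col-0 at 2 h. The rise from 2 h to 6 h was 1.50 ± 0.31 in slr-1 (adjusted p = 0.0321) and 1.15 ± 0.31 in Col-0 (adjusted p = 0.0117), and the difference was not called (adjusted p = 0.68). AT5G47550 rose in slr-1 from 406 and 1053 to 1754 and 2879 (1.75 ± 0.35, adjusted p = 0.0287) and in Col-0 from 536 and 630.0 to 7300.2 and 6733, a difference of -1.80 ± 0.50 (adjusted p = 0.037). That difference was called in 2 of 8 fits with 1 array left out (-2.47 to -1.13, adjusted p up to 0.126). It was lost with no filter (adjusted p = 0.0582) and with no trend in the variances (adjusted p = 0.0733). Its 2 h arrays in slr-1 were far apart, and the change was 1.08 and 2.42 with one or the other left out.

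AT1G66800 rose in slr-1 from 381 and 318 at 2 h to 1098 and 1035 at 6 h, after 708 and 686 at 0 h (1.56 ± 0.21, adjusted p = 0.004). It was the only named rise whose call held in every alternative fit, and in Col-0 it fell by 2 h and rose after it as well, at lower signals of 195 and 189.6 at 2 h and 517 and 519 at 6 h. AT5G47455 was low in slr-1 at first, with 51.3 and 28.4 at 0 h and 55.4 and 46.5 at 2 h, and reached 374 and 262 at 6 h (2.25 ± 0.36, adjusted p = 0.0112). AT5G47455 passed the signal filter only at 6 h in NAA, in slr-1 and in Col-0, so the filter itself favours a called rise. With the larger added value, the pooled 25th percentile, the change of AT5G47455 was 1.49 (adjusted p = 0.00844). AT3G57940 went from 195 and 222 to 605 and 495 in slr-1 (1.32 ± 0.23, adjusted p = 0.016) and from 330.3 and 355 to 2022 and 1724 in Col-0. NCRK, a receptor-like kinase of the plasma membrane picked after its values were seen, rose from 1198 and 1330.0 to 2338 and 1941 (0.75 ± 0.15, adjusted p = 0.0305).

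Other rises in slr-1 had no counterpart in Col-0, and for AT3G59340, AT2G24580, SWEET16 and ARLA1B they followed a called dip at 2 h. The highest of all named rises was that of AT3G59340, which read 311 and 312 at 0 h, 55.6 and 88.3 at 2 h and 473 and 403 at 6 h (2.35 ± 0.37, adjusted p = 0.00877). In Col-0 it read 136 and 154 at 2 h and 123 and 140.2 at 6 h in NAA but 556 and 893 after mock treatment, and the difference between the genotypes was 2.47 ± 0.52 (adjusted p = 0.0113). The 6 h arrays of slr-1 lay above its own 0 h arrays and below the mock arrays of Col-0. AT2G24580 fell by 2 h in both genotypes and then parted, with 454 and 409 at 2 h and 1097 and 948 at 6 h in slr-1 but 409 and 463 at 2 h and 152 and 194 at 6 h in Col-0, a difference of 2.46 ± 0.33 (adjusted p = 0.000895). AT4G29700 read 525 and 466 at 2 h in slr-1 (1.30 ± 0.24, adjusted p = 0.0218) and reached 1493 and 1043 in slr-1 and 461 and 360.3 in Col-0 at 6 h, with 1571 and 1648 in mock. Its difference of change was 1.59 ± 0.34 (adjusted p = 0.0132).

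SWEET16, a sugar transporter of the vacuole membrane, dipped and returned in slr-1, from 1207 and 1107 at 0 h to 557 and 794 at 2 h and 1116 and 1271 at 6 h (0.82 ± 0.18, adjusted p = 0.0403). In Col-0 its signal went from 1016 and 1094 to 794 and 669, so the genotypes moved in opposite directions, with a difference of 1.34 ± 0.25 (adjusted p = 0.00646). Of 8 tested SWEET genes 1 rose and 1 fell in slr-1, against 0.464% and 0.753% of all tested, with a median of -0.21. In Col-0 5 of the 8 fell, against 17.6% of all tested. Of 11 other settings with all arrays kept, the call of SWEET16 in slr-1 held in 5. ARLA1B, a small GTPase related to ADP-ribosylation factors that was picked after its values were seen, rose in slr-1 by 0.70 ± 0.15 (adjusted p = 0.0377) and changed in Col-0 by -0.57 ± 0.15 (adjusted p = 0.00959), a difference of 1.27 ± 0.21 (adjusted p = 0.00324). ATHSP22.0, a small heat shock protein of the endoplasmic reticulum, read 64.1 and 79.4 at 2 h and 277 and 269 at 6 h in slr-1, near the limit of the tested signals (1.69 ± 0.38, adjusted p = 0.0473). Its difference of change between the genotypes was 1.92 ± 0.53 (adjusted p = 0.0379). The call in slr-1 was kept in 3 of 10 other settings.

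Apart from AT1G66800, the call of every rise named above was lost with at least 1 array left out. AT3G59340 lost its call without replicate 1 at 2 h or either 6 h array (adjusted p up to 0.0824). AT5G47455, AT5G47550, AT4G29700 and SWEET16 lost theirs without 3 of the 4 arrays in turn (adjusted p up to 0.0773, 0.211, 0.141 and 0.274). GH9B13, AT2G24580, AT3G57940, NCRK, ARLA1B and ATHSP22.0 lost theirs without any 1 of the 4 arrays (adjusted p up to 0.187, 0.134, 0.106, 0.193, 0.242 and 0.208). The directions were kept, and the differences between the genotypes for AT3G59340, AT2G24580, SWEET16 and ARLA1B kept their calls with any 1 array left out. That of AT4G29700 was lost without replicate 2 of Col-0 at 2 h (1.26, adjusted p = 0.0573). The difference of ATHSP22.0 was lost in 7 of the 8 cases (adjusted p up to 0.16).

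**Figure D3:**
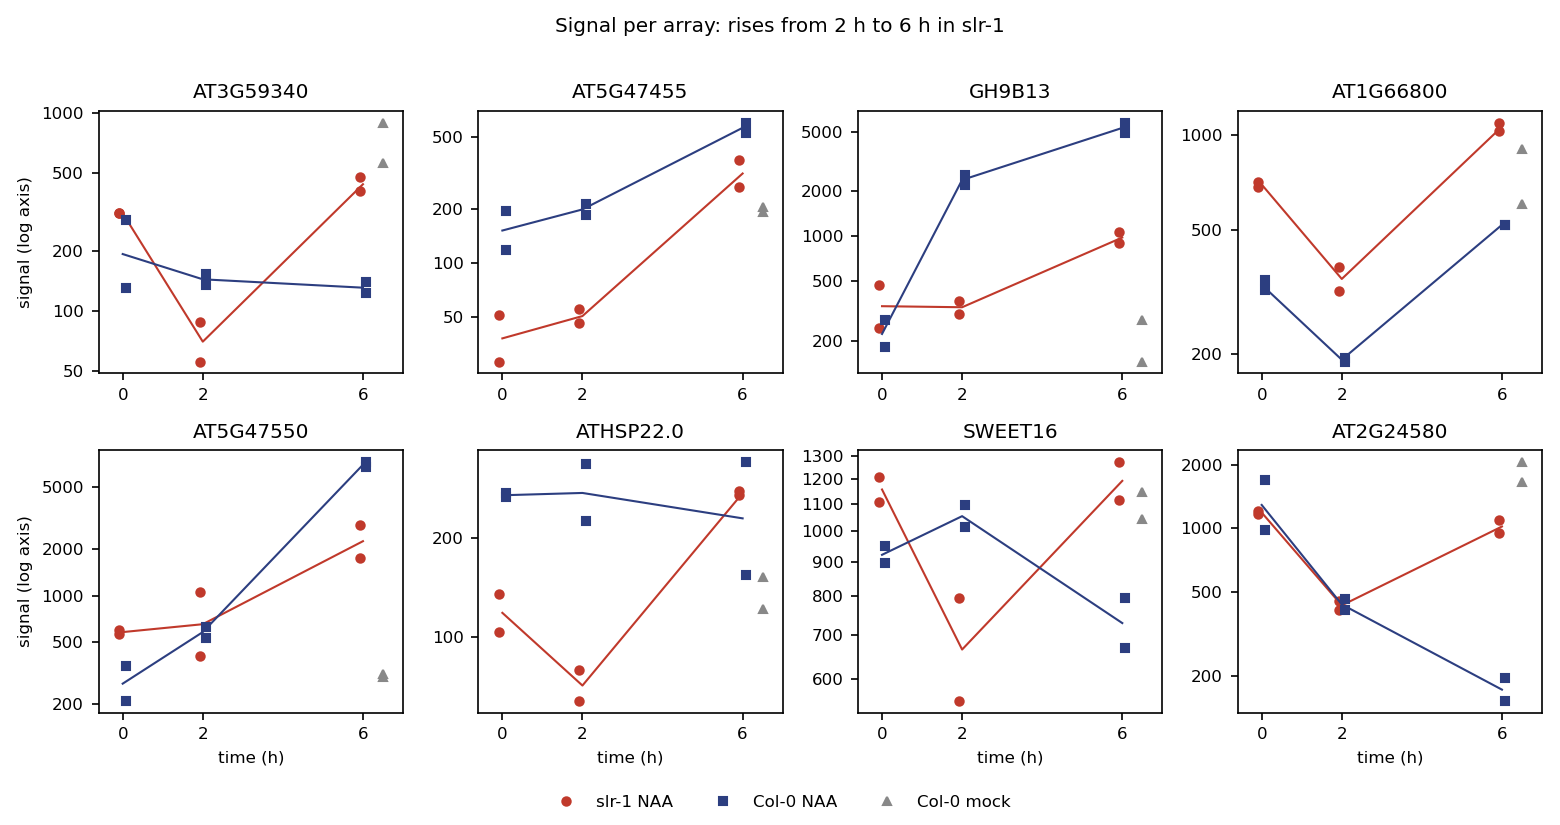
Signal on each array (log axis) against time for 8 genes that rose between 2 h and 6 h in slr-1; circles are slr-1 and squares Col-0 in NAA, lines join geometric means of the 2 arrays, and triangles, drawn just right of 6 h, are Col-0 mock. AT3G59340, SWEET16 and AT2G24580 dip at 2 h and are higher again at 6 h in slr-1 and do not rise from 2 h to 6 h in Col-0, while GH9B13 and AT5G47550 rise in both genotypes.

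Genes of auxin response and lateral root founding had 0 calls in slr-1 between 2 h and 6 h among those named here, while several rose in the wild type. Only 1.22% of all tested were called in slr-1, so 0 calls among so few genes do not set them apart. LBD16, a LOB-domain transcription factor of lateral root initiation, read 976 and 710.4 at 0 h, 1811 and 1746 at 2 h and 980.0 and 1288 at 6 h in slr-1 (-0.65 ± 0.17 from 2 h to 6 h, adjusted p = 0.096). Its 6 h arrays lay between those of 0 h and 2 h, while Col-0 went from 6263 and 5485 to 8484 and 7375, and the changes differed by -1.08 ± 0.25 (adjusted p = 0.0167). LBD29, its close relative, read 2583 and 3486 at 2 h and 2323 and 2193 at 6 h in slr-1 and 10342 and 8655 at 2 h and 13989.8 and 11781 at 6 h in Col-0, and neither its change in slr-1 (adjusted p = 0.677) nor the difference (adjusted p = 0.388) was called. PUCHI, an AP2/ERF factor that shapes the divisions of the primordium, read 170.2 and 332 at 2 h and 297 and 251 at 6 h in slr-1, with overlapping arrays. Col-0 had already risen by 2 h, from 106.9 and 66.4 to 942 and 876 (3.16 ± 0.29, adjusted p = 6.12e-06), while slr-1 had no early call (adjusted p = 0.371). By 6 h Col-0 reached 11381 and 9396, and the changes from 2 h to 6 h differed by -3.30 ± 0.41 (adjusted p = 0.000484).

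GH3 enzymes join auxin to amino acids, and 3 of 4 tested had risen by 2 h in the mutant, against 6.86% of all tested. GH3.1 read 18.6 and 11 at 0 h, 448 and 735 at 2 h and 322 and 358 at 6 h in slr-1, against 4965 and 3972 at 2 h and 14878 and 13871 at 6 h in Col-0. The changes from 2 h to 6 h differed by -2.42 ± 0.60 (adjusted p = 0.025), and the mutant stayed far below the wild type at both times. WES1, also known as GH3.5, read 15970.4 and 19824 at 2 h and 12159 and 7734 at 6 h in slr-1 (-0.87 ± 0.27, adjusted p = 0.136) and differed from Col-0 by -1.28 ± 0.38 (adjusted p = 0.0485). GH3.3 read 38029.6 and 41713 at 2 h and 35159 and 16149.9 at 6 h, where the 2 arrays disagreed in the bright range in which replicate 2 was low. Without replicate 1 at 6 h its change was -1.3 (adjusted p = 0.0256), and without replicate 2 it was -0.18. From 2 h to 6 h 0 of the 4 were called in slr-1, against 1.22% of all tested, and 2 rose in Col-0, against 15.5%. In slr-1 all 4 lay below zero, against 43% of all tested, with a median of -0.73 (3 of 4 and -0.53 under quantile normalization). IAA29, an Aux/IAA repressor gene, read 1145 and 1317 at 2 h and 1598 and 1497 at 6 h in slr-1 and 2009.6 and 1951 at 2 h and 6588 and 6087 at 6 h in Col-0, a difference of -1.34 ± 0.39 (adjusted p = 0.0464). All 4 tested Aux/IAA genes lay above zero in slr-1, as did 8487 of all 14882 tested, with a median of 0.27. Of the 4, 0 were called, against 1.22% of all tested.

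Genes of DNA replication lay above zero in slr-1 without passing the test and rose in the wild type. PRL, the gene of the replication helicase subunit MCM7, read 376 and 548 at 2 h and 779.9 and 829.6 at 6 h in slr-1 (0.80 ± 0.25, adjusted p = 0.136) against 506 and 412 at 2 h and 2697 and 2099 at 6 h in Col-0. Both 6 h arrays of the mutant were above its 2 h arrays, yet the change was smaller than in Col-0 by 1.54 ± 0.35 (SE, adjusted p = 0.0161). ICU2, the catalytic subunit of DNA polymerase alpha, came nearest to the threshold, with 144 and 226 at 2 h and 396 and 482 at 6 h (1.19 ± 0.30, adjusted p = 0.077), and its difference from Col-0 was not called (adjusted p = 0.354). POLA3, a subunit of the polymerase alpha and primase complex, differed by -1.61 ± 0.33 (adjusted p = 0.0101). All 4 tested replication genes lay above zero in slr-1, as did 8487 of all 14882 tested, with a median of 0.77. Of the 4, 0 were called, against 1.22% of all tested. In Col-0 all 4 were called higher, against 15.5% of all tested, at a median of 2.10. AUR1, a mitotic Aurora kinase, read 413 and 485 at 2 h and 448 and 522 at 6 h in slr-1 but 614 and 469 at 2 h and 2103 and 1455 at 6 h in Col-0, a difference of -1.56 ± 0.32 (adjusted p = 0.0101). Of the 6 tested cell cycle and mitosis genes 0 were called in slr-1, against 1.22% of all tested, at a median of 0.14. In Col-0 3 of the 6 rose, against 15.5% of all tested.

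Genes of ribosome synthesis likewise rose in Col-0 without a call in slr-1. NRPA2, the second largest subunit of RNA polymerase I, read 1656 and 1519.8 at 2 h and 1843 and 1748 at 6 h in slr-1. Col-0 had 2009 and 2178 at 2 h and 4873 and 5235 at 6 h, a difference of -1.09 ± 0.20 (adjusted p = 0.00599). YAO, a nucleolar protein of ribosomal RNA processing, differed by -1.17 ± 0.27 (adjusted p = 0.018). All 5 tested genes of the nucleolus and RNA polymerases I and III were called higher in Col-0, against 15.5% of all tested, at a median of 1.26. In slr-1 0 of the 5 were called, against 1.22% of all tested, at a median of 0.24. Among these auxin, division and nucleolar genes, the genotype differences of PUCHI, POLA3 and NRPA2 kept their calls with any 1 of the 8 arrays left out. That of AUR1 was lost only without replicate 1 of Col-0 at 6 h (adjusted p = 0.0563). Those of LBD16, PRL and YAO were lost in 3, 3 and 4 of the 8 cases (adjusted p up to 0.08, 0.0816 and 0.0782), those of GH3.1 and WES1 in 7 (up to 0.0998 and 0.187) and that of IAA29 in all 8 (up to 0.147).

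**Figure D4:**
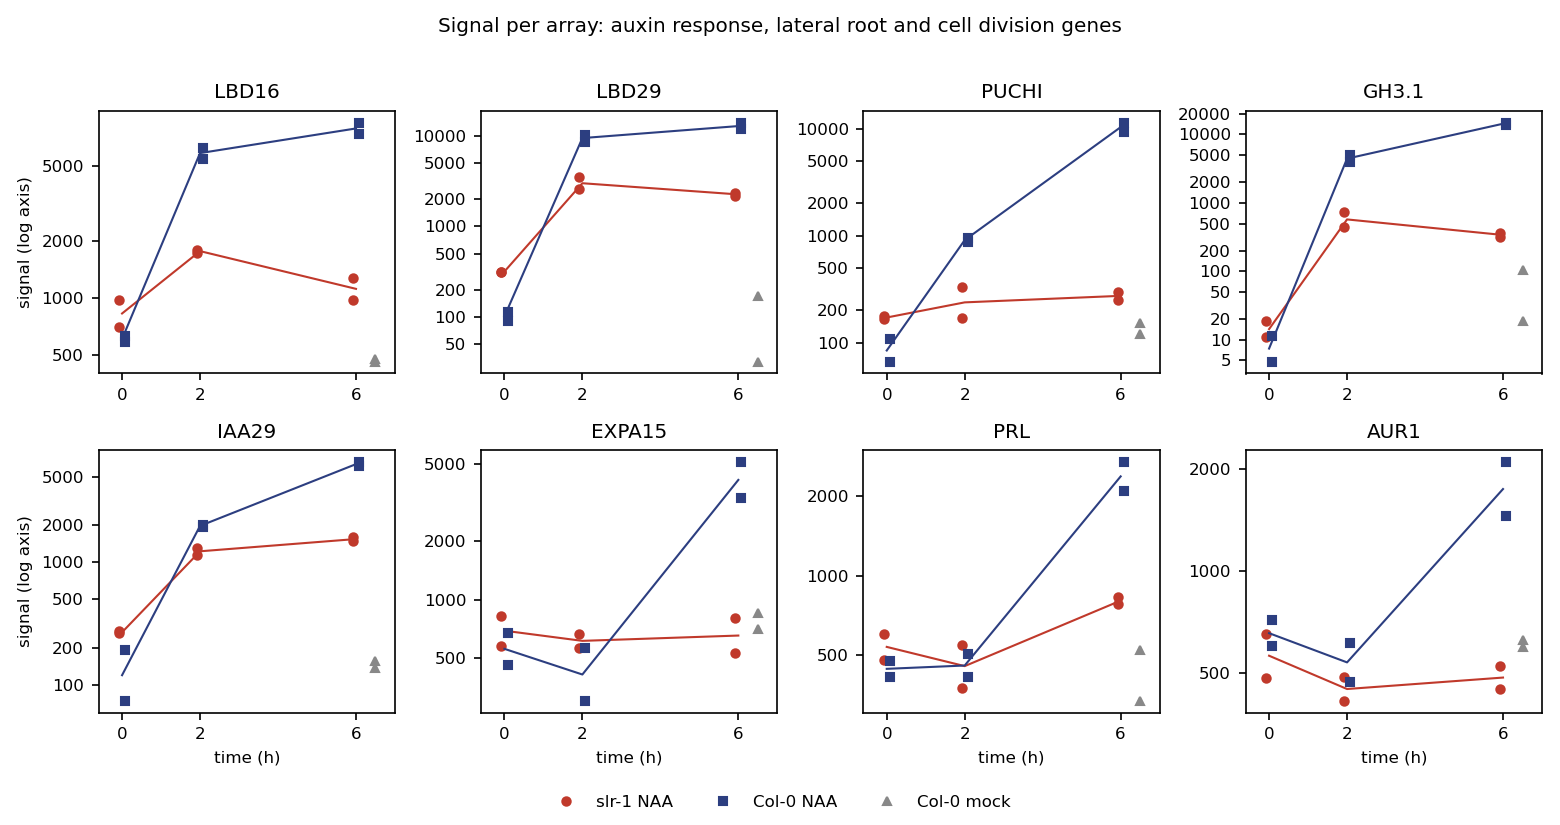
Signal on each array (log axis) against time for 8 genes of auxin response, lateral root founding, wall loosening and cell division; circles are slr-1 and squares Col-0 in NAA, lines join geometric means of the 2 arrays, and triangles are Col-0 mock. EXPA15 and AUR1 part between 2 h and 6 h, when Col-0 rises and slr-1 does not. PUCHI has already risen in Col-0 at 2 h and parts further by 6 h, and LBD29 shows no called difference of change.

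Several of the widest differences of change between the genotypes came from genes that moved in Col-0 and were not called in slr-1. AT1G30760 read 1654 and 3860.1 at 2 h and 3046 and 2541 at 6 h in slr-1 and 463 and 749 at 2 h and 18110.3 and 15528 at 6 h in Col-0, a difference of -4.65 ± 0.60 (adjusted p = 0.000618). EXPA15, an expansin that loosens cell walls, read 566 and 667 at 2 h and 810.0 and 529 at 6 h in slr-1. Its signals in Col-0 were 301 and 564 at 2 h and 5139 and 3361 at 6 h, a difference of -3.18 ± 0.44 (adjusted p = 0.00107). PR-1-LIKE, named for its likeness to a pathogenesis-related protein, read 4.3 and 6.6 at 2 h and 144 and 154 at 6 h in slr-1. In Col-0 it read 5.1 and 14.6 at 2 h and 5130.1 and 3182 at 6 h, so its difference of -4.37 ± 1.18 (adjusted p = 0.0341) starts from signals far under the limit of 218.1. PR-1-LIKE passed that limit only in Col-0 at 6 h in NAA, so the filter itself favours a called difference. That call was lost with any 1 of the 8 arrays left out (adjusted p up to 0.151), whereas those of AT1G30760 and EXPA15 were kept.

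Among positive differences, AT4G30450 stayed bright in slr-1, with 12728 and 17353 at 2 h and 11354 and 9984 at 6 h, while Col-0 dropped from 8804 and 6267 to 418 and 188 (4.15 ± 0.40, adjusted p = 0.000131). AT4G11190 read 267 and 364 at 2 h and 220.3 and 294 at 6 h in slr-1 and 595 and 1336 at 2 h and 16.9 and 18.6 at 6 h in Col-0 (4.36 ± 0.53, adjusted p = 0.000433). Neither was called in slr-1 (adjusted p = 0.438 and 0.785). OCT1, an organic cation and carnitine transporter, was higher on both 6 h arrays than on both 2 h arrays of slr-1, with 2002 and 2566 at 2 h and 5089.7 and 8087 at 6 h (adjusted p = 0.111). In Col-0 it read 144 and 162 at 2 h and 13 and 10.4 at 6 h (3.98 ± 0.60, adjusted p = 0.0017). The serine carboxypeptidase-like gene scpl31 differed by 3.39 ± 0.56 (adjusted p = 0.00308). These 4 differences kept their calls with any 1 array left out.

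Nuclear genes of photosynthesis fell in Col-0 from 2 h to 6 h and had no call in the mutant, where some had fallen by 2 h. Of 11 tested, 0 were called in slr-1, against 1.22% of all tested, with a median of 0.08. In Col-0 all 11 were lower, against 17.6% of all tested, with a median of -1.32. The difference was called positive for 9, against 5.25% of all tested. From 0 h to 2 h 5 of the 11 were called lower in slr-1, against 5.45% of all tested, with a median of -0.61 over the 11. LHCB4.1, an antenna protein of photosystem II, read 2551 and 2400.2 at 2 h and 1869 and 1771 at 6 h in slr-1 and 4212 and 4155 at 2 h and 1446 and 1895 at 6 h in Col-0 (0.89 ± 0.23, adjusted p = 0.0281). The mutant had begun lower, with a signal of 3505 and 4614 at 0 h against 5787 and 6504 in Col-0. The difference for LHCB4.2 was 1.99 ± 0.48 (adjusted p = 0.0213), and the calls of LHCB4.1 and LHCB4.2 were lost in 7 and 4 of the 8 cases with 1 array left out (adjusted p up to 0.128 and 0.0851). With the larger added value the difference for LHCB4.2 was 1.17 (adjusted p = 0.046). The part of shoot tissue in these values was not tested, and in pooled tissue fewer cells of a type and less RNA per cell cannot be told apart.

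Probe sets chosen by their calls in Col-0, on arrays that enter no slr-1 change, place the mutant's late hours against the wild-type course. The 2304 late rises of Col-0 had a median of 1.06 from 2 h to 6 h in Col-0, which the choice sets, and of 0.27 in slr-1, where 45 were called higher (1.95%, against 0.464% of all tested) and 2 lower. Both 6 h arrays of slr-1 lay above both 2 h arrays in this median, at 0.24 and 0.25 against -0.06 and -0.03 relative to 0 h. The 2624 late falls had medians of -0.84 and -0.16, and 96 were called lower in slr-1 (3.66%, against 0.753%) and 5 higher. The 1451 early rises of Col-0 stood at 0.41 on both 2 h arrays of slr-1 relative to 0 h and at 0.47 and 0.51 at 6 h, while Col-0 went from 1.03 and 1.05 to 1.41 and 1.45. In slr-1 54 of them fell between 2 h and 6 h (3.72%) and 13 rose (0.896%). The 1168 early falls of Col-0 (7.85% of all tested) had a median of 0.00 in slr-1 over this interval.

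**Figure D5:**
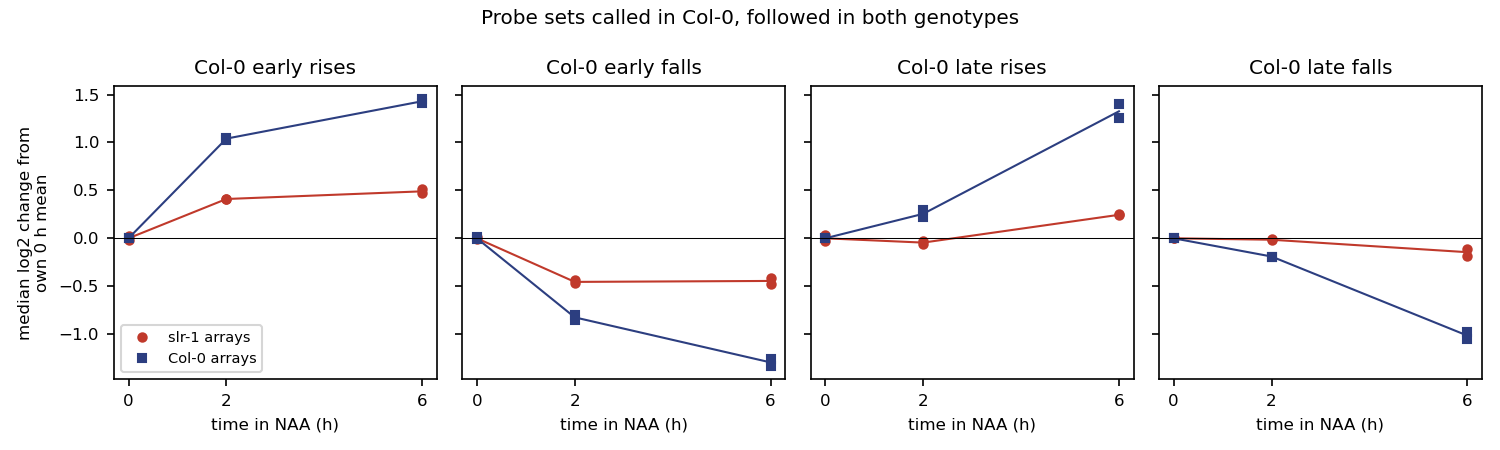
Median log2 change from the genotype's own 0 h mean (vertical) against hours in NAA (horizontal), over probe sets called in Col-0 as rising or falling from 0 h to 2 h (early) or from 2 h to 6 h (late); points are arrays and lines join their means. The slr-1 points move little after 2 h, with the late rises reaching 0.24 and 0.25 at 6 h, while Col-0 reaches 1.25 and 1.4.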

How the data were processed

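The authors hybridised 14 Affymetrix ATH1 arrays, and the deposited intensity of each probe set is the linear MAS5 signal, per the submitters' processing notes. Per the deposited values the 2% trimmed mean is 1000.1 on every array, so each array had been scaled to 1 level, and other settings are not given in the sources used here. Groups and replicates came from the sample titles, and 0 columns of per-sample values went unused.

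Control probe sets were removed, and 14882 of 22746 probe sets with both arrays of at least 1 of the 7 groups above 218.1 (the pooled 40th percentile) were kept. The pooled 10th percentile of 18.9 was added and log2 taken. limma 3.58.1 in R 4.3.3 fitted 7 group means to all 14 arrays (7 residual and 6.57 prior degrees of freedom, with a trend of variance on signal), and p-values were adjusted over all 14882. An exact permutation test of 2 against 2 arrays cannot go below 0.333, so none is given. On simulated data 40% of 100 probe sets changed by 1 (log2) and 92% of 100 changed by 2 were recovered in the comparison of slr-1 at 6 h and 2 h, with 9 false calls.

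Genes were named where the annotation gives a probe set 1 gene (8086 of those tested, with 300 for several genes and 6496 for none). The rule named 10 set genes (IAA14, LBD16, LBD29, PUCHI, GH3.1, GH3.3, IAA29, MCM7, ICU2 and AUR1), the 15 highest rises and 15 largest falls in slr-1, the 8 highest and 8 lowest genotype differences, and members of gene lists, and the text gives part of these. For genes with several probe sets, lists used the one with the highest mean signal. The members and lists were chosen with earlier results of these data known. Alternatives changed the value added, the filter, normalization, the variance trend, the arrays fitted and a replicate block. Leaving out replicate 2 of slr-1 at 0 h, leaving out the top 10% of probe sets by mean signal, and the RALF-like list were chosen after seeing the data. No sequences were used here. The labels call the replicates biological without saying more, and p-values measure the spread between these pooled samples.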

Additional observations from a re-analysis of the deposited data

Results flagged for a closer look

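The difference between the genotypes in the change from 2 h to 6 h was called for 1465 probe sets, and the genes named in the report for which it was called are gathered here with that difference, slr-1 minus Col-0 on the log2 scale, from the limma fit. Among genes that rose in slr-1 and fell or were not called in Col-0, the difference was 2.47 for AT3G59340, 2.46 for AT2G24580, 1.92 for ATHSP22.0, 1.59 for AT4G29700, 1.34 for SWEET16 and 1.27 for ARLA1B. Among genes that fell in slr-1 it was -1.12 for RALFL22, which was not called in Col-0, and 1.08 for RALFL32, which fell further in Col-0. For AT5G47550, which rose in both, it was -1.80.

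Among genes not called in slr-1, the auxin and lateral root genes differed by -3.30 for PUCHI, -2.42 for GH3.1, -1.34 for IAA29, -1.28 for WES1 and -1.08 for LBD16. Genes of division and the nucleolus differed by -1.61 for POLA3, -1.56 for AUR1, -1.54 for PRL, -1.17 for YAO and -1.09 for NRPA2. The wall gene EXPA15 differed by -3.18, AT1G30760 by -4.65 and PR-1-LIKE, which passed the filter only in Col-0 at 6 h in NAA, by -4.37. In the positive direction the values were 4.36 for AT4G11190, 4.15 for AT4G30450, 3.98 for OCT1, 3.39 for scpl31, 1.99 for LHCB4.2 and 0.89 for LHCB4.1. Groups of 2 arrays are too small for a test of single outlying arrays, and none was made.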

How the results depend on the processing

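Of the 181 calls in slr-1 from 2 h to 6 h, none changed sign in any alternative. The count was 75 without the variance trend (27 higher, 48 lower), 88 with the 6 slr-1 arrays alone (29 higher, 59 lower), 90 at 2-fold or more, and 138 to 234 in the other fits to full groups. With 1 array left out it ran from 31 to 234 (8 to 90 higher, 18 to 144 lower), the lowest without replicate 1 at 2 h and the highest without replicate 2 at 0 h. The genotype difference was called for 1051 to 1932 probe sets in fits to full groups and for 510 to 1114 with 1 array left out (346 to 600 higher, 164 to 514 lower). The median change in slr-1 of the early rises of Col-0 was 0.05, 0.03 to 0.05 with 1 array left out and -0.01 under quantile normalization, and that of the late rises was 0.27, 0.26 to 0.29 with 1 array left out and 0.24 under quantile normalization. Quantile normalization moved the median change of all probe sets from 0.06 to 0.01. Without replicate 1 at 2 h, the uncalled changes of PUCHI and AUR1 in slr-1 became -0.26 and 0.00, and with 1 array left out they ran from -0.26 to 0.63 and from 0.00 to 0.22.

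Of the 28 genes named as called in slr-1, 6 kept the call in every alternative, and of the 28 named for a genotype difference, 14 did. Replicate numbers did not pair the samples: deviations from the group means correlated by 0.091 between slr-1 at 2 h and 6 h and by -0.161 to 0.128 over 21 pairs of groups. With a replicate block 173 probe sets were called in slr-1, 163 of them among the 181, and 1357 in the genotype difference. The cause of these shifts was not tested. With 2 arrays per group their number limits the precision, and signals under about 218.1 give fold changes compressed by the value added.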

Other observations

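Transcripts encoded in the plastid had 0 calls in slr-1 from 2 h to 6 h among 65 tested, where 1.22% of all tested were called. Their median was 0.09 against 0.06 over all probe sets. In Col-0 2 of the 65 fell, against 17.6% of all tested, with a median of -0.32. In slr-1 0.464% of all tested rose and 0.753% fell, so lists of this size hold few calls in any case. Among enzymes that attach or conjugate small molecules, 1 of 34 UDP-glucosyltransferases fell in the mutant and 0 rose, with a median of 0.08. Of 11 glutathione S-transferases 0 were called, with a median of -0.13. In Col-0 12 and 5 of these fell, or 35.3% and 45.5%, against 17.6% of all tested, and the genotype difference was called and positive for 7 and 4, or 20.6% and 36.4%, against 5.25% of all tested. Expansins, xyloglucan enzymes and GH9 glycosyl hydrolases, which remodel the wall, had 1 rise and 1 fall among 24 in slr-1, with a median of 0.19. Of all tested, 0.464% rose and 0.753% fell there. In Col-0 8 of the 24 rose and 6 fell, where 15.5% of all tested rose and 17.6% fell.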
